A study of Rattus norvegicus with 42 samples.

Results

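The genes of the immunoproteasome and of class I antigen processing were followed through GR binding, transcription and RNA in the livers of rats that received corticosterone (CORT) in pulses or at a constant rate. The 10 genes were Psmb8, Psmb9, Psmb10, Psme1, Psme2, Tap1, Tap2, Tapbp, B2m and Nlrc5, found by name among the 26258 gene names of the pSer2 Pol2 table. They held 28 of its 60999 regions (18 with coordinates of their own), 10 of the 22929 rows of the RNA count table, and 4 of the 3981 GR regions lay with their centre within 50 kb of a transcription start site (TSS) of these genes. The genes were chosen by their shared pathway with earlier results of these data known, which measured values weighed in the choice is not recorded, and all calls among them are therefore a description of these libraries.

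All rats were male Sprague Dawley, adrenalectomised and cannulated, treated with dexamethasone after surgery, and given CORT in saline drinking water that was withdrawn before the infusions. CORT was infused either as 20 min pulses each hour at 1 ml per h (PULS) or continuously at 0.333 ml per h (CONS), and vehicle (VEH) replaced it in control rats. Per the authors' methods, the constant infusion began with a short period at 1 ml per h. ChIP-Seq livers were taken at the third pulse peak (PEAK_140), at the end of the inter-pulse interval (NADIR_180), and after 140 min (CONS_140) or 180 min (CONS_180) of constant CORT, with 2 libraries per group and 6 rats pooled per library. Their VEH group was a pulsatile vehicle infusion with 1 library at each time. RNA-Seq livers were taken at 180 min from 4 groups of 3 libraries, namely PULS CORT, PULS VEH, CONS CORT and CONS VEH, and how many rats went into 1 RNA library is not given in the sources used here. RNA libraries held 3956379 to 7777219 reads, pSer2 Pol2 libraries 4938473 to 9326927 tags and GR libraries 2051977 to 6715803 tags. All 8 hepatocyte markers examined were present, with a summed level of 138000 to 186000 CPM (read counts scaled to the size of the library) over the RNA libraries.

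Proteasomes degrade intracellular proteins, and in cells exposed to interferon the constitutive catalytic subunits Psmb5, Psmb6 and Psmb7 can be replaced by Psmb8, Psmb9 and Psmb10, which forms the immunoproteasome. Psme1 and Psme2 encode the ring that caps and activates it, Tap1 and Tap2 the transporter that carries the resulting peptides into the endoplasmic reticulum, and Tapbp (tapasin) the chaperone that holds the transporter next to empty class I molecules. B2m is the light chain of every class I molecule, and Nlrc5 is the transactivator of class I genes. Glucocorticoids are widely used because they restrain immune gene expression, often through the glucocorticoid receptor (GR) acting beside other transcription factors. In rn6, Psmb9, Tap1, Psmb8 and Tap2 lie side by side in the class II part of the MHC on chromosome 20, where their regions together span 32125 b, and the starts of Tap1 and Psmb9 face away from each other at a distance of 190 b.

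During constant CORT, RNA of 3 members was lowered, and all 3 lie in this block: Psmb8 by 2.73-fold, Tap1 by 2.71-fold and Psmb9 by a log2 fold change of -0.90. During pulsatile CORT none of the 9 measured members was raised or lowered. Psmb8 was also the member called when the CONS response minus the PULS response was tested. Its level was lower in every CONS CORT library than in any CONS VEH library, as for 14.8% of all genes. It was higher in every PULS CORT library than in any PULS VEH library, as for 12.3% of all genes, but this rise was not called. Tap2 had 1 read in each of 2 libraries and 0 in the others and was not tested, so that 9 of 10 members passed the filter of more than 10 reads over the 12 RNA libraries.

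Psmb8 (chr20:3990613-3993769, plus strand, rn6) encodes the chymotrypsin-like subunit of the immunoproteasome. Its level was 11.6, 16 and 15.1 CPM in the PULS VEH libraries and 20.2, 22.5 and 17.4 CPM in the PULS CORT libraries. In CONS VEH it was 19.2, 25.3 and 25.2 CPM, and in CONS CORT 8.73, 8.16 and 8.42 CPM. The CONS CORT libraries were thus the lowest of the 12 and lay close together. The mean of 8.44 CPM ± 0.285 (SD, n = 3) in CONS CORT stood against 23.2 CPM ± 3.51 in CONS VEH, a log2 fold change of -1.45 (SE 0.17, adjusted p = 2.8e-05, edgeR quasi-likelihood test). In PULS the means were 20.0 CPM ± 2.55 with CORT and 14.3 CPM ± 2.35 with VEH, a log2 fold change of 0.49 (SE 0.17, adjusted p = 0.099).

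Tap1 (chr20:3979035-3989035, plus strand, rn6, the interval being limited to the first 10 kb of the gene) encodes one of the subunits of the peptide transporter. It was found at 25.5, 27.6 and 27.7 CPM in CONS VEH and at 7.72, 13.4 and 8.06 CPM in CONS CORT, without overlap. The log2 fold change was -1.44 (SE 0.24, adjusted p = 0.00066). In PULS VEH its levels were 12.9, 20.0 and 13.1 CPM and in PULS CORT 21.0, 15.6 and 10.9 CPM, so that these groups overlapped throughout (log2 fold change 0.06, SE 0.24, adjusted p = 0.93).

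Psmb9 (chr20:3973420-3978845, minus strand, rn6) encodes the caspase-like position of the immunoproteasome. CONS VEH libraries held 18.1, 24.7 and 22.8 CPM and CONS CORT libraries 11.6, 14.1 and 8.78 CPM, again without overlap (log2 fold change -0.90, SE 0.22, adjusted p = 0.011). Without the third CONS CORT library its adjusted p was 0.07 at a log2 fold change of -0.73. In PULS the VEH libraries held 12, 18.1 and 16.4 CPM and the CORT libraries 20.8, 17.8 and 11.9 CPM, a log2 fold change of 0.14.

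**Figure D1:**
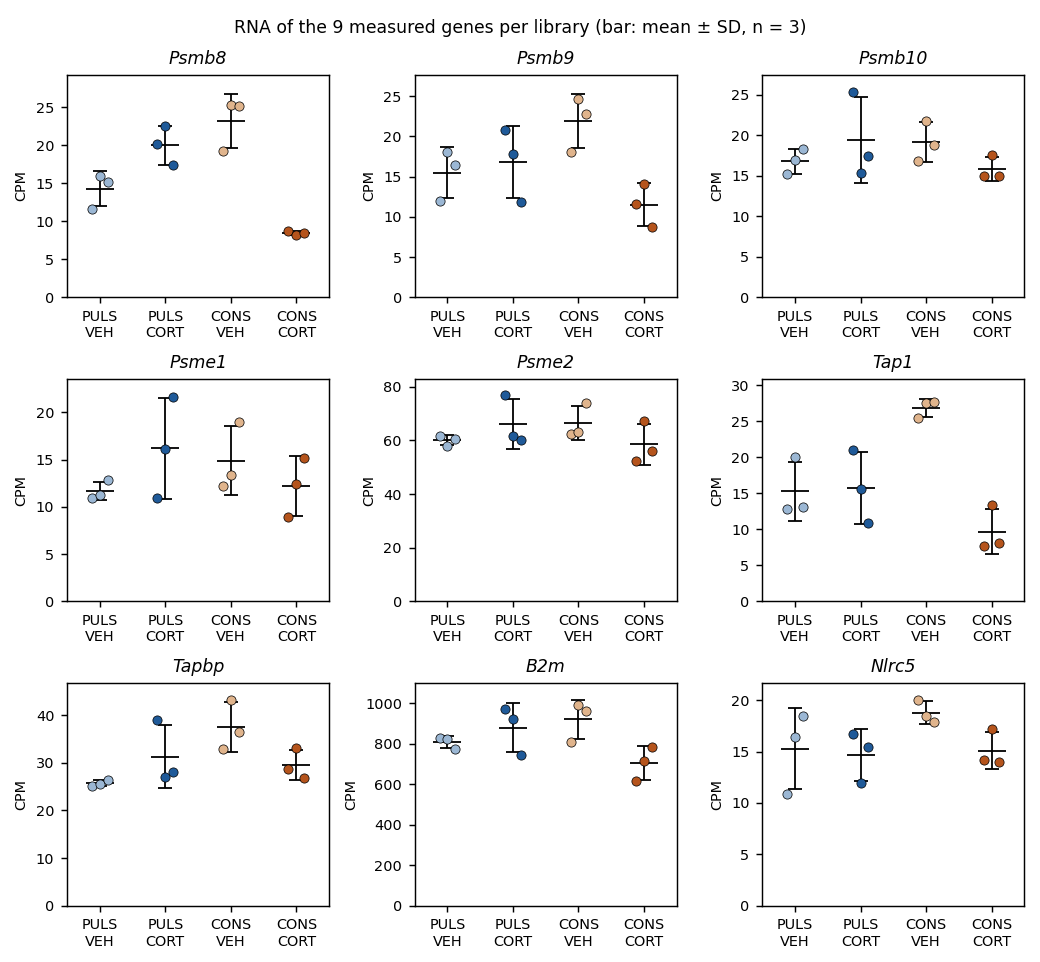
RNA level in CPM (y axis, linear, from 0) of the 9 measured members in PULS VEH, PULS CORT, CONS VEH and CONS CORT; points are libraries and bars the mean ± SD of 3 libraries. The CONS CORT points of Psmb8 lie between 8.16 and 8.73 CPM, below all other libraries, while the PULS CORT points of the same gene lie between 17.4 and 22.5 CPM.

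To show the sequences next to which these 3 genes start, their promoter windows from 250 b before to 50 b after the start are given from RefSeq (build GRCr8, in which the block has the opposite orientation to rn6), read in the direction of the gene. The windows are chr20:4656982-4657281 on the minus strand for Psmb8, chr20:4668494-4668793 on the minus strand for Tap1 and chr20:4668750-4669049 on the plus strand for Psmb9, the last 2 sharing 44 b. Capitals mark matches to an interferon-stimulated response element core (ISRE core, GAAANNGAAA) or to a gamma-activated sequence (GAS, TTCNNNGAA) on either strand.
Psmb8: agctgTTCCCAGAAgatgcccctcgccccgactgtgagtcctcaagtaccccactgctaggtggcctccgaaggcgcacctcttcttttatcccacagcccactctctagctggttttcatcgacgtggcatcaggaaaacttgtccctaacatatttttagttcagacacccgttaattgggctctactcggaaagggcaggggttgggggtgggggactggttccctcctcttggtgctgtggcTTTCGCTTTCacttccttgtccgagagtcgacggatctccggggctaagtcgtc
Tap1: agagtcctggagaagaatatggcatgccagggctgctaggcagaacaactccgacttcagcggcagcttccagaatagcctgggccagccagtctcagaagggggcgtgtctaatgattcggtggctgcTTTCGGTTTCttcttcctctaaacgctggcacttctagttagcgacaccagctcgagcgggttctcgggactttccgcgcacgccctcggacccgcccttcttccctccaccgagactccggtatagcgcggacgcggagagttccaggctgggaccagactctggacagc
Psmb9: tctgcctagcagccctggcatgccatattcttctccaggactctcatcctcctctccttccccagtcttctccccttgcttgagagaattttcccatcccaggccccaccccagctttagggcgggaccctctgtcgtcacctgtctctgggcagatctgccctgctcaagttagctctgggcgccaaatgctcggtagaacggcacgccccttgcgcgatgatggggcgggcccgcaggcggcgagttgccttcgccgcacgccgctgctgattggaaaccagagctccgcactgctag

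In the Psmb8 window the ISRE core match began at -4 b from the start, on the strand opposite to the gene, and a GAS match lay at -245 b. The Tap1 window had an ISRE core match at -121 b, and the Psmb9 window had neither motif. The starts of Tap1 and Psmb9 are 457 b apart in GRCr8 but 190 b apart in rn6. Which bases between them fall in the Psmb9 window therefore depends on the annotated start. Of the 9 members with a window (Nlrc5 had none), 7 held at least 1 ISRE core, namely B2m, Psme2, Psmb10, Tap2, Psmb8, Tap1 and Tapbp, against 3.92% of all 33469 promoter windows. GAS was found in Psmb8 alone among the 9, against 8.87% of all windows. The GR half-site TGTTCT was found in B2m and Tap1, against 20.7% of all windows, and the palindromic GR response element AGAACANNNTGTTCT in none of the 9, against 0.0149%. The CCAAT box (CCAAT), read by the factor NF-Y, was found in B2m, Psmb8 and Psmb9, against 37.5%. The half-site is part of the palindrome, and a match in such a window is not evidence of binding.

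Seen against the whole transcriptome, CORT changed 9.2% of the 14092 tested genes in CONS, lowering 4.75% and raising 4.45%, and 3 of 9 members were lowered and 0 raised. The log2 fold change was below 0 for all 9 members in CONS, with a median of -0.33, against -0.01 over all genes. The 3 CONS CORT libraries were all below the 3 CONS VEH libraries for 5 members, compared with 14.8% of all genes. In PULS 4.23% of genes were called (1.79% raised and 2.44% lowered) and 0 of 9 members, with 1 member (Psmb8) at an unadjusted p below 0.05 in edgeR and 1 in DESeq2, which also called none. The median log2 fold change of the members in PULS was 0.14, against -0.01 over all genes, and 2 members (Psmb8 and Tapbp) were higher in all PULS CORT libraries than in any PULS VEH library, compared with 12.3% of all genes. In bulk liver, fewer cells of a type and less RNA per cell cannot be told apart.

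Among the remaining members the direction in CONS was downward but the changes were smaller than the threshold. Psmb10, the trypsin-like immunoproteasome subunit, held 16.9, 21.8 and 18.8 CPM in CONS VEH and 15.0, 17.6 and 15.0 CPM in CONS CORT. These groups overlapped (log2 fold change -0.25, SE 0.18, adjusted p = 0.41). In PULS VEH it held 15.2, 17.0 and 18.3 CPM and in PULS CORT 25.4, 15.3 and 17.4 CPM. Hence the catalytic subunits encoded in the MHC block and the one encoded on chromosome 19 (chr19:37909546-37912027, minus strand, rn6) had different outcomes in the test, although the difference between these genes was not tested.

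The activator genes Psme1 (chr15:34256071-34258947, plus strand, rn6) and Psme2 (chr15:34265557-34269851, minus strand, rn6) lie close together on chromosome 15. Psme1 was found at 12.2, 13.4 and 19 CPM in CONS VEH and 8.94, 12.4 and 15.2 CPM in CONS CORT. Psme2 was found at 62.5, 63.3 and 74.0 CPM in CONS VEH and 52.4, 67.1 and 56.1 CPM in CONS CORT. Both overlapped between the groups, with log2 fold changes of -0.27 (SE 0.24) and -0.18 (SE 0.13). In PULS, Psme1 was spread more widely with CORT, at 11, 16.1 and 21.6 CPM, than with VEH, at 11, 11.3 and 12.9 CPM. Psme2 held 77.0, 61.6 and 60.2 CPM with CORT and 61.8, 58.0 and 60.6 CPM with VEH.

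Tapbp (chr20:5468078-5476193, minus strand, rn6) held 33, 43.2 and 36.4 CPM in CONS VEH and 28.6, 33.1 and 26.9 CPM in CONS CORT, which overlapped by a narrow margin (log2 fold change -0.33, SE 0.15, adjusted p = 0.17). In PULS its CORT libraries, at 38.9, 27 and 28.1 CPM, all exceeded the VEH libraries, at 25.2, 25.5 and 26.3 CPM, without being called (log2 fold change 0.30, adjusted p = 0.31). B2m (chr3:114087287-114093309, plus strand, rn6) was measured with the most reads of the members, 2988 to 6620 per library. Its levels were 809, 991 and 960 CPM in CONS VEH and 616, 716 and 783 CPM in CONS CORT, without overlap, yet the change was modest (log2 fold change -0.38, SE 0.13, adjusted p = 0.073). Nlrc5 (chr19:10966396-10976396, minus strand, rn6, limited to 10 kb) held 20.0, 18.5 and 17.9 CPM in CONS VEH and 14.2, 17.2 and 14.0 CPM in CONS CORT, also without overlap and also not called (log2 fold change -0.31, adjusted p = 0.31). In PULS, B2m held 828, 825 and 775 CPM with VEH and 970, 924 and 743 CPM with CORT. Nlrc5 held 10.9, 16.4 and 18.5 CPM with VEH and 16.7, 11.9 and 15.4 CPM with CORT. Both genes overlapped between these groups.

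Whether the response to CORT depended on the infusion pattern was tested as the CONS response minus the PULS response. At this test 0.0284% of all genes were called, that is 4 of 14092 (0.0213% with a lower response in CONS), and Psmb8 was one of them with a difference of -1.94 on the log2 scale (SE 0.24, adjusted p = 0.0057). Over the 15 alternative settings and left-out libraries that gave an adjusted p, this difference lay between -2.08 and -1.81 and was called each time. For Tap1 the difference was -1.5 (SE 0.34, adjusted p = 0.089), and for Psmb9 -1.04 (SE 0.31, adjusted p = 0.16), neither of them called. All 9 members had a difference below 0, with a median of -0.63, against 0.02 over all genes. The 2 responses share no library.

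The log2 difference of CONS VEH from PULS VEH was above 0 for all 9 members, with a median of 0.34 against -0.01 over all genes, and 4 members (Psmb8, Psmb9, Tap1 and Tapbp) had an unadjusted p below 0.05. None was called in edgeR, and DESeq2, which gave an adjusted p for 1 of the 9, had 4 at an unadjusted p below 0.05. Over the whole transcriptome 0% of genes passed and 1286 had an unadjusted p below 0.05 in edgeR. The difference was 0.69 (SE 0.16, adjusted p = 0.25) for Psmb8, 0.81 (SE 0.23, adjusted p = 0.35) for Tap1, 0.54 (SE 0.15) for Tapbp and 0.49 (SE 0.21) for Psmb9. The 3 CONS VEH libraries lay above all PULS VEH libraries for 4 members, compared with 6.86% of all genes. The lowering of these genes by constant CORT was thus measured from controls whose values lay above those of the pulsatile infusion, by differences that were not called. Numbers in the sample titles place the PULS VEH libraries and the first CONS VEH library in a range apart from the other RNA libraries. What these numbers stand for is not given in the sources used here, and their part in the VEH difference was not tested.

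When the CORT infused groups were compared directly, Psmb8 was lower in CONS CORT than in PULS CORT (log2 fold change -1.25, SE 0.18, adjusted p = 0.0027), without overlap of the libraries. It was the 1 member called of 9, whereas 0.887% of all genes were called and 0.27% were lowered, and it was the 1 member with all libraries lower, compared with 7.9% of all genes. Tap1 differed by -0.69 (SE 0.25, adjusted p = 0.28) and Psmb9 by -0.55 (SE 0.23, adjusted p = 0.37), with overlapping libraries. For Nlrc5 the difference was 0.04.

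**Figure D2:**
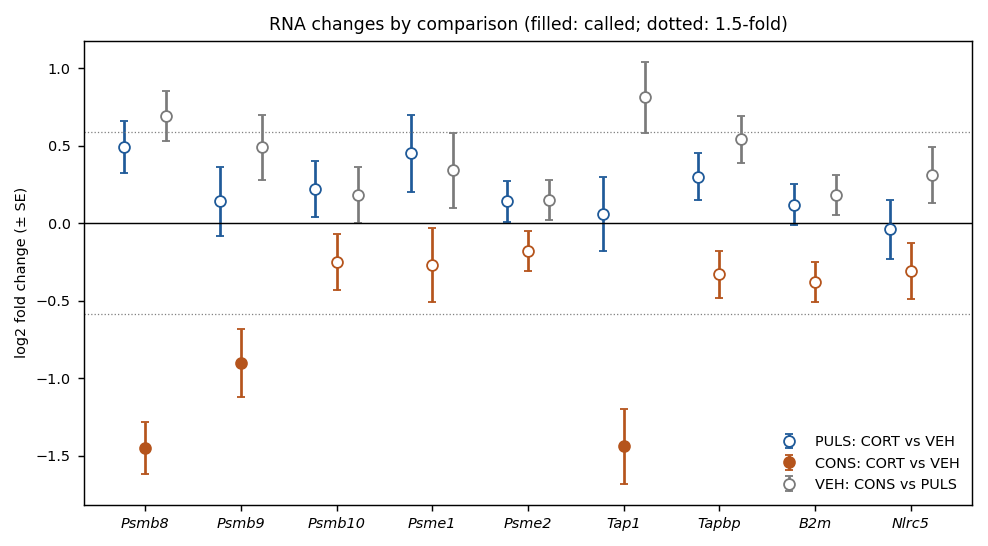
Log2 fold change (y axis) of RNA for the 9 measured members, with its SE, for CORT against VEH in PULS, CORT against VEH in CONS, and CONS VEH against PULS VEH; filled points were called and dotted lines mark 1.5-fold. All 9 CONS values lie below 0 and 3 of them (Psmb8, Psmb9, Tap1) are filled, whereas all 9 differences between the VEH groups lie above 0 and none is filled.

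The constitutive catalytic subunits gave an internal comparison, because each immunoproteasome subunit takes the place of one of them. Psmb5, the counterpart of Psmb8, held 20.9, 19 and 19.5 CPM in CONS VEH and 18.3, 21.0 and 22.7 CPM in CONS CORT (log2 fold change 0.06, SE 0.14). Within a library, the reads of Psmb8 divided by those of Psmb5 were 0.918, 1.34 and 1.29 in CONS VEH and 0.478, 0.389 and 0.37 in CONS CORT. In PULS this ratio was 0.587, 0.685 and 0.652 with VEH and 0.695, 0.85 and 0.787 with CORT. The ratio was therefore lower with CORT in CONS and higher with CORT in PULS, with no overlap in either pair. The ratio of Psmb9 to Psmb6 was 0.504 ± 0.0365 (SD, n = 3) in CONS VEH and 0.279 ± 0.0331 in CONS CORT, also without overlap. That of Psmb10 to Psmb7 was 0.215 ± 0.0412 and 0.164 ± 0.0143, a smaller step, with a narrow overlap of the libraries. These ratios of reads depend on the lengths of the transcripts, and only their changes between groups can be read.

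**Figure D3:**
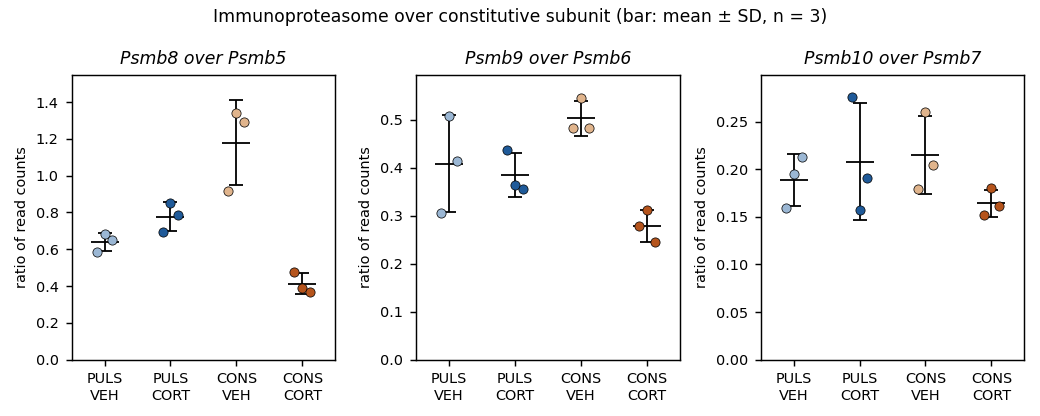
Ratio of read counts (y axis, linear, from 0) of each immunoproteasome subunit to its constitutive counterpart in the 4 RNA groups; points are libraries and bars the mean ± SD of 3 libraries. The Psmb8 ratio is 0.37 to 0.478 in CONS CORT and 0.918 to 1.34 in CONS VEH, while the Psmb10 ratio changes little.

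The wider pathway was examined by lists of genes. Of 3 constitutive catalytic subunits, 11 other core subunits, 19 measured genes of the regulatory cap and other activators, 5 assembly factors and 5 measured genes of peptide trimming and loading, none was called in PULS, in CONS or in the difference of responses. In CONS, at an unadjusted p below 0.05 stood 0, 1, 2, 0 and 2 of them respectively, where 25.3% of all genes did, and their median log2 fold changes were 0.06, -0.06, 0.05, 0.05 and -0.24. In PULS the core and cap lists had median log2 fold changes of 0.23 and 0.23, with 4 of 11 and 8 of 19 genes at an unadjusted p below 0.05, where 19.8% of all genes were. Class II presentation had 0 of 9 measured genes called in either infusion (3 at an unadjusted p below 0.05 in CONS and 1 in PULS), with a median log2 fold change of -0.25 in CONS.

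Of 11 measured class I heavy chain and related genes, 2 were lowered in CONS and none in PULS, where 4.75% and 2.44% of all genes were lowered. RT1-A1, a classical class I heavy chain, held 65.4, 69.9 and 78.9 CPM in CONS VEH and 30.3, 55.2 and 34.7 CPM in CONS CORT (log2 fold change -0.82, SE 0.21, adjusted p = 0.015). RT1-N3, a class I gene of low level, held 2.57, 6.17 and 4.89 CPM and 2.44, 1.69 and 1.07 CPM (log2 fold change -1.34, SE 0.39, adjusted p = 0.034). The heavy chain genes are close copies of one another, so their reads may be divided between copies and their values are uncertain. Both calls were lost when some single CONS libraries were left out, with adjusted p up to 0.081 for RT1-A1 and 0.15 for RT1-N3.

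Among 20 measured regulators of class I genes, 2 were lowered and 1 raised in CONS, and 1 was lowered and 1 raised in PULS, where 9.2% and 4.23% of all genes were called. Of the 2 lowered in CONS, 1 is described here. Irf1, the interferon regulatory factor that activates Psmb9, Tap1 and other members, fell from 23.3, 36.6 and 24.6 CPM in CONS VEH to 8.33, 10.3 and 4.48 CPM in CONS CORT (log2 fold change -1.83, SE 0.25, adjusted p = 0.00011). In PULS its libraries held 17.0, 24.7 and 25.3 CPM with VEH and 13.5, 12.1 and 11.7 CPM with CORT, which also did not overlap, although the change was not called (log2 fold change -0.84, SE 0.25, adjusted p = 0.058). Irf1 thus had a value below 0 in both infusions, unlike Psmb8, and its difference between the responses was -1.0 (SE 0.35, adjusted p = 0.24).

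Nfkbia, the inhibitor of NF-κB and a known GR target, rose in both infusions, from 13.0, 18.9 and 14.7 CPM to 33.3, 24.7 and 26.1 CPM in PULS (log2 fold change 0.86, SE 0.19, adjusted p = 0.014, lost without the first PULS CORT or the first PULS VEH library at up to 0.078) and from 18.6, 21.4 and 18.1 CPM to 58.7, 37.9 and 45.0 CPM in CONS (log2 fold change 1.28, SE 0.17, adjusted p = 0.00012). Nfyb, a subunit of NF-Y, was lowered in PULS (log2 fold change -1.03, SE 0.26, adjusted p = 0.028), from 22.6, 51.0 and 30.7 CPM to 14.4, 13.4 and 23.6 CPM, but without the second PULS VEH library the call was lost, as it was without the first or the second PULS CORT library (adjusted p up to 0.13).

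Immune cells contain more immunoproteasome than hepatocytes, and their markers were therefore read beside these results. For Kupffer cells and macrophages, 0 of 9 measured of 10 listed markers were called in CONS, and their summed level was 341 to 622 CPM in CONS VEH and 406 to 468 CPM in CONS CORT, with Cd5l at 0 in all 12 libraries. T and NK lymphocyte markers summed to 15.1 to 29.3 CPM in CONS VEH and 16.3 to 21.9 CPM in CONS CORT, B lymphocyte and plasma cell markers to 1.8 to 2.55 and 2.58 to 5.36 CPM, dendritic cell markers to 28.5 to 35.0 and 35.0 to 41.4 CPM with Itgax at 0, and neutrophil markers to 1.03 to 5.52 and 0.86 to 2.27 CPM with Mpo at 0. None of these markers was called in either infusion. The median log2 fold change in CONS was -0.17 for Kupffer cells, -0.31 for T and NK lymphocytes, 0.25 for B lymphocytes, 0.27 for dendritic cells and -0.88 for neutrophils, against 0.20, -0.01, -0.23, 0.31 and 0.10 in PULS. The median difference of the responses was -0.39, -0.44, 0.48, 0.01 and -1.46 in the same order, so that the Kupffer cell, T and NK lymphocyte and neutrophil medians had the sign of the members' median. In PULS the summed levels were 367 to 520 CPM with VEH and 388 to 578 CPM with CORT for Kupffer cells, and 17.9 to 25.1 and 14.4 to 24.2 CPM for T and NK lymphocytes. The part of these cells in the results was not tested.

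Among markers of the other liver cells, 2 of 5 for stellate cells and 1 of 8 for hepatocytes were raised in CONS. Over all genes 4.45% were raised. Sinusoidal endothelium markers summed to 254 to 292 CPM in CONS VEH and 257 to 324 CPM in CONS CORT and cholangiocyte markers to 8.1 to 13.8 and 8.25 to 9.89 CPM with Krt19 at 0, with none called. Stellate cell markers summed to 23.4 to 34.8 and 39.4 to 48.5 CPM, where Rgs5 (log2 fold change 1.30, adjusted p = 0.00067) and Dcn (1.16, adjusted p = 0.036, up to 0.19 without the first CONS CORT or without the first or the third CONS VEH library) were raised in CONS, while Col1a1 (-0.45), Des (-0.23) and Lrat (-0.16) were not called and the median of the 5 was -0.16. Rgs5 was also higher in CONS CORT than in PULS CORT (log2 fold change 1.43, adjusted p = 0.0054, edgeR). That call was lost without the second PULS CORT library. The hepatocyte markers summed to 138000 to 175000 CPM in CONS VEH and 168000 to 176000 CPM in CONS CORT. Of them Cps1, the first enzyme of the urea cycle, was raised in both infusions (log2 fold change 1.18 in CONS, adjusted p = 3.4e-05, and 0.97 in PULS, adjusted p = 0.00072). The median of the 8 hepatocyte markers was 0.05 in CONS, and their signs were divided. Besides Cps1, Apoa1 stood at 0.52, Cyp2e1 at 0.39 and Alb at 0.29. Below 0 were Tf at -0.49 (adjusted p = 0.021, below the fold threshold), Ttr at -0.31, Hnf4a at -0.23 and Serpina1 at -0.20. None but Cps1 was called.

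As a description of shared pattern, the 5 genes outside the list whose log2 CPM followed the mean standardised level of the 9 members most closely over the 12 RNA libraries, among 7294 genes of at least 10 CPM, were AABR07029581.1 (Pearson's r 0.90), Got2 (0.90), Parp3 (0.89), Smim7 (0.89) and Asgr1 (0.88). The libraries share groups and depth, and no test was made. Mean levels of Got2, a mitochondrial aminotransferase, were 214, 237, 263 and 199 CPM in PULS VEH, PULS CORT, CONS VEH and CONS CORT. Those of Parp3, a poly-ADP-ribose polymerase, were 16.2, 18.5, 22.1 and 14.3 CPM.

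Transcription was read from pSer2 Pol2, the form of RNA polymerase II phosphorylated during elongation, over each gene body. Values were the deposited log2 values, which are drawn towards the mean of a region where tags are few, and for each gene the region with the highest mean stood for the gene. Of the 27 member regions with varying values, none was called in any of 8 comparisons with limma, where between 0% and 0.989% of all 38315 regions were called. Relative to VEH the shares over all regions were 0.788% in CONS_140, 0.214% in CONS_180, 0.989% in PEAK_140 and 0.00522% in NADIR_180. They were 0.48% between PEAK_140 and NADIR_180, 0.17% between CONS_180 and NADIR_180, 0% between CONS_140 and CONS_180, and 0.0261% between PEAK_140 and CONS_140. At an unadjusted p below 0.05 stood 2 regions, both of them listings of the same B2m interval, at CONS_180 relative to VEH. The lowest adjusted p in any of these comparisons was 0.57.

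Tap1 had the widest range among the members. Its log2 value was 5.53 and 4.94 in VEH, 4.56 and 4.47 at PEAK_140, 5.62 and 5.21 at NADIR_180, 5.87 and 3.85 at CONS_140, and 5.08 and 3.90 at CONS_180. The 2 libraries of each CONS group lay far apart. Tap1 differed from VEH by -0.38 in CONS_140, -0.75 in CONS_180, -0.72 in PEAK_140 and 0.18 in NADIR_180 on the log2 scale, each with an SE of 0.59, and none of these differences was called.

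B2m, with the highest pSer2 Pol2 values of the members, stood at 8.69 and 8.41 in VEH, 8.15 and 8.13 at PEAK_140, 8.23 and 8.41 at NADIR_180, 8.25 and 7.94 at CONS_140, and 7.90 and 7.79 at CONS_180. The CONS_180 libraries were the lowest of the 10, and the change relative to VEH was -0.71 (SE 0.30, unadjusted p = 0.038, not called). Psme1 stood at 5.15 and 5.01 in VEH, 4.76 and 4.40 at PEAK_140, 5.19 and 4.91 at NADIR_180, 5.22 and 4.04 at CONS_140, and 4.83 and 4.06 at CONS_180. The log2 fold change of Psme1 at PEAK_140 relative to VEH was -0.50 (SE 0.42), and it was not called.

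Psmb8 and Psmb9, whose RNA was lowered in CONS, had low and nearly level pSer2 Pol2 values. Psmb8 stood at 2.81 and 2.80 in VEH, 2.88 and 2.68 at PEAK_140, 2.90 and 2.86 at NADIR_180, 2.95 and 2.68 at CONS_140, and 2.73 and 2.68 at CONS_180, and 3 of the 10 libraries shared its lowest value. Psmb9 stood between 3.23 and 3.82, with 3 libraries at its lowest value. At CONS_180 Psmb8 differed from VEH by -0.10 (SE 0.22) and Psmb9 by -0.05 (SE 0.28), and neither was called. Nlrc5 stood at 2.45 in 6 libraries and at no more than 2.90 in the others, Psme2 between 3.31 and 3.68, and Tap2 between -1.89 and -1.71. Psmb10 (5.85 to 6.74) and Tapbp (6.52 to 7.99) were above this range. Psmb10 stood at 6.47 and 6.70 at NADIR_180 and at 6.19 and 6.26 in VEH, a difference of 0.36 with an SE of 0.37 that was not called.

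Relative to VEH, 9 of 10 genes had a value below 0 at PEAK_140 and 9 of 10 at CONS_180, with medians of -0.09 and -0.11, against -0.05 and 0.01 over all regions. The values at NADIR_180 and CONS_140 were divided, with 4 of 10 below 0 at each and medians of 0.06 and 0.02, where the median over all regions was 0.01 and 0.15. These signs depended on the scaling, since with libraries centred on their medians 9 of 10 genes were below 0 in CONS_140, 8 in CONS_180, 5 in PEAK_140 and 4 in NADIR_180. The 4 comparisons share the VEH libraries. Of the regulators, Nfkbia was raised at PEAK_140 (log2 fold change 2.05, SE 0.34, adjusted p = 0.015) and CONS_140 (2.72, SE 0.34, adjusted p = 0.0044), with 6.92 and 6.43 in VEH, 8.85 and 8.60 at PEAK_140 and 9.53 and 9.26 at CONS_140. The first of these calls was lost without any 1 of the 4 libraries compared (adjusted p up to 0.19), and the second without the second VEH or the first CONS_140 library (up to 0.09). Irf1 stood at 6.98 and 6.32 in VEH and at 6.39 and 3.49 at CONS_180, a change of -1.71 (SE 0.80) that was not called.

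**Figure D4:**
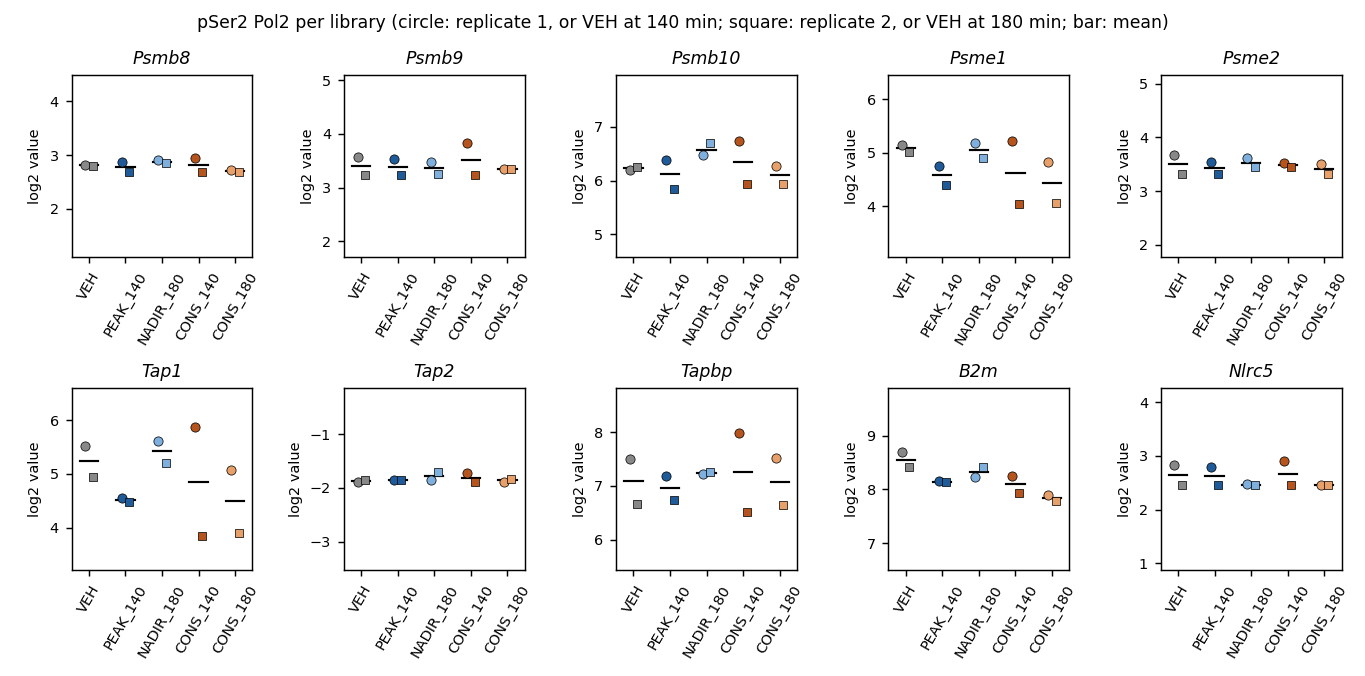
Deposited pSer2 Pol2 log2 value (y axis, each panel spanning the same number of log2 units) for the region standing for each of the 10 members; circles are replicate 1 or the 140 min VEH library, squares replicate 2 or the 180 min VEH library, and bars group means. Tap1 at CONS_140 spreads from 3.85 to 5.87, and Psmb8 stays between 2.68 and 2.95 in all groups.

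GR regions were then located relative to the members. None lay within 50 kb of the MHC block. The nearest, assigned to Agpat1 by the authors, was 376.5 kb from Psmb8, 381.8 kb from Tap1 and 390.2 kb from Psmb9, and the nearest to Tapbp was 390.1 kb and to B2m 175.8 kb away. Each distance is to the closest listed transcript start of the gene, which for Psmb8, Tap1 and Tapbp lies inside the interval given above. The 4 regions within 50 kb belonged to Psmb10 and to the Psme1 and Psme2 pair, none of which was called in RNA, and the first beyond that distance was at -80701 b from Nlrc5 (chr19:11056834-11057361, rn6).

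The strongest was a promoter region of Lcat (chr19:37916687-37917312, rn6), -4972 b from the TSS of Psmb10. Its log2 value was -0.53 and -0.72 in VEH, 4.79 and 5.17 at PEAK_140, 2.91 and 2.89 at NADIR_180, 5.66 and 4.49 at CONS_140, and 4.10 and 4.63 at CONS_180. All CORT libraries exceeded VEH, and NADIR_180 lay between. It was raised relative to VEH in PEAK_140 (5.60, SE 0.57, adjusted p = 6.4e-05), in NADIR_180 (3.52, SE 0.57, adjusted p = 0.0066), in CONS_140 (5.70, SE 0.57, adjusted p = 8.1e-05) and in CONS_180 (4.98, SE 0.57, adjusted p = 0.00018), and it was higher at PEAK_140 than at NADIR_180 (2.08, SE 0.57, adjusted p = 0.012), a call that was lost without the second PEAK_140 library. With libraries centred on their medians, none of its differences from VEH was called. The one at NADIR_180 was then 2.34 (SE 0.70, limma adjusted p = 0.15). The paper, which used DESeq2 and its own scaling, reports no GR site significantly enriched at NADIR_180 relative to VEH. At this region the authors marked a peak for PEAK_140, CONS_140 and CONS_180, but not for NADIR_180 or VEH. At the other 3 regions they marked one for CONS_140 alone. These 3 regions were thus listed because of CONS_140, and their calls in that group are not independent of that choice.

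The region nearest to a member start was a promoter region of Rnf31 (chr15:34270437-34270964, rn6), -849 b from the TSS of Psme2 and 14629 b from that of Psme1. It stood at -0.86 and -1.0 in VEH, 1.87 and -0.48 at PEAK_140, 0.57 and 1.42 at NADIR_180, 4.13 and 2.06 at CONS_140, and 1.94 and 1.58 at CONS_180. It was raised relative to VEH at CONS_140 (4.02, SE 0.99, adjusted p = 0.0066) and at CONS_180 (2.69, SE 0.99, adjusted p = 0.037), and not at PEAK_140 (1.63, adjusted p = 0.16) or NADIR_180 (1.93, adjusted p = 0.38). The call at CONS_180 was lost without any 1 of the 4 libraries compared. An intronic region of Pskh1 (chr19:37873475-37874002, rn6), 38289 b from Psmb10, was raised at CONS_140 alone (3.85, SE 1.17, adjusted p = 0.018), at 4.27 and 2.97 against 0.95 and -1.40 in VEH, and this call was lost without the second VEH or the first CONS_140 library. A promoter region of Dcaf11 (chr15:34234174-34234701, rn6), -21634 b from Psme1, was not called in any comparison, and its CONS_140 libraries stood at 4.08 and -1.03.

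In counts, 3 of the 4 regions were raised in CONS_140 and 2 in CONS_180, where 64.7% and 67.9% of all 3981 regions were raised. The count in CONS_140 includes regions that were listed only because of a CONS_140 peak, and is no independent result. In PEAK_140 and in NADIR_180 1 region was raised, where 78.6% and 7.44% of all regions were raised. Between PEAK_140 and NADIR_180, 1 of 4 was raised, against 68.8%, and between CONS_180 and NADIR_180 none, against 49.6%, with 1 of 4 at an unadjusted p below 0.05 in limma. The comparisons with VEH share its 2 libraries. Over all regions the median log2 difference from VEH was 3.38 in CONS_140, 3.46 in CONS_180, 4.17 in PEAK_140 and 0.84 in NADIR_180. After subtraction of the median of all regions from every library, which removes the response shared by GR regions, none of the 4 regions was raised. The region at -4972 b from Psmb10 then differed from VEH by 1.59 in CONS_140, 0.92 in CONS_180, 0.98 in PEAK_140 and 2.34 in NADIR_180, and the region near Psme2 by -0.09, -1.37, -2.99 and 0.75.

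**Figure D5:**
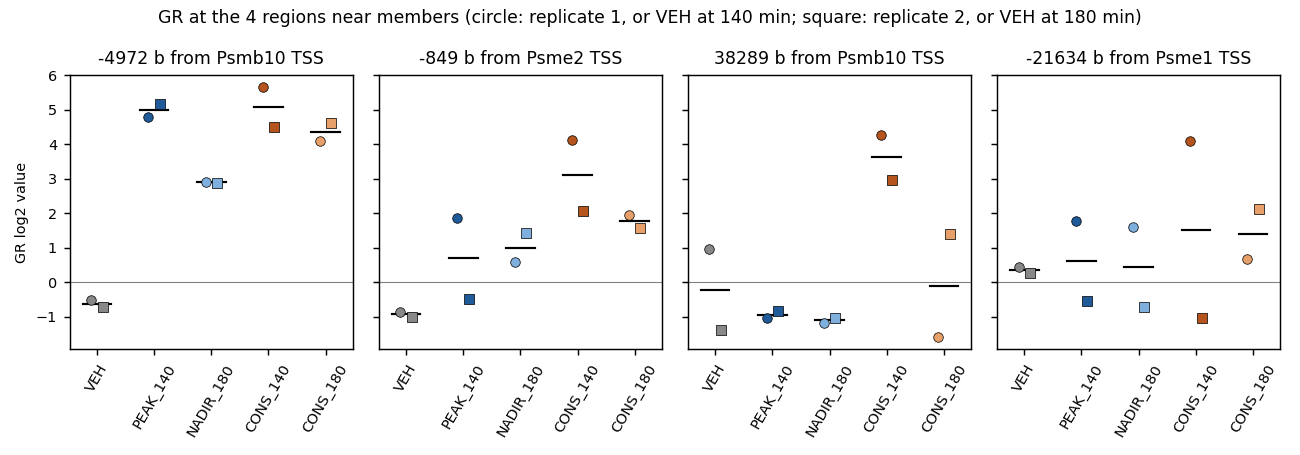
Deposited GR log2 value (y axis) at the 4 regions within 50 kb of a member TSS, by group, with the signed distance to the nearest member TSS in each panel title; circles are replicate 1 or the 140 min VEH library, squares replicate 2 or the 180 min VEH library, and bars group means. The region at -4972 b from Psmb10 is above 2.89 or at it in all CORT libraries, while the 2 CONS_140 libraries of the region at -21634 b from Psme1 lie at 4.08 and -1.03.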

How the data were processed

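Per the authors' methods, ChIP reads were trimmed to 50 b (Trimmomatic 0.36), aligned to rn6 with bowtie2, freed of duplicates and counted with HOMER 4.9.1 after subtraction of input tags. pSer2 Pol2 was counted over coding regions longer than 320 b, of which at most the first 10 kb were used, and GR over merged peaks called on both replicates of a group. The ChIP values deposited by the authors are on a log2 scale; for GR the methods and the file header differ on whether they are relative to tags in regions or to total tags. The RNA values the authors deposited are raw read counts per gene (featureCounts 1.6.2, Ensembl annotation); use of strand is not given in the sources used here. Columns of the authors' own comparisons (fold changes and p-values) were not used.

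RNA counts were compared with edgeR 4.0.16 (TMM, quasi-likelihood test, all 12 libraries in 1 fit, genes with more than 10 reads in all), and ChIP log2 values with limma 3.58.1 (variance trend, all 10 libraries of an assay, regions with constant values left out), in R 4.3.3. Fits covered whole tables, and calls required p below 0.05 after Benjamini-Hochberg adjustment with a change above 1.5-fold (log2 0.585), thresholds taken from the study. The tests were checked on simulated data. The simulated ChIP changes were larger than any pSer2 Pol2 change of the members, so this check does not show that changes of their size would be found. p-values measure the spread between libraries. CPM are edgeR's scaled counts, except summed markers, which are scaled to total reads; 0.5 CPM was added before logs for the likeness ranking.

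The members and lists were chosen with earlier results of these data known. All members were named, and of each list the called genes, at most 5 per comparison; constitutive subunits, and pSer2 Pol2 values of Irf1, were added after values were seen. Replicate numbers were taken to pair the pSer2 Pol2 libraries: the ChIP experiment was carried out on separate occasions according to the series' design, and deviations of same-numbered CORT libraries correlated at 0.155 to 0.553 over 12 pairs. For RNA (-0.0921 to 0.137 over 18 pairs) and GR (-0.0265 to 0.0718) they were not. The pairing of pSer2 Pol2 libraries was entered only in the replicate block, and the SE and p of pSer2 Pol2 given in the Results come from the fit without it. Alternatives were DESeq2 1.42.0, other filters, scaling, no variance trend, no fold threshold, the replicate block, a 100 kb window and leaving out each library. Figures were drawn with matplotlib 3.10.9. 1 called gene of the regulator list is not reported here.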

Additional observations from a re-analysis of the deposited data

Results flagged for a closer look

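The response of Psmb8 RNA to CORT differed between the infusion patterns when the difference itself was tested (constant response minus pulsatile response, -1.94 on the log2 scale, SE 0.24, adjusted p = 0.0057, edgeR). With CORT its level was lower than VEH in 3 of 3 CONS libraries and higher than VEH in 3 of 3 PULS libraries. Such separations were found for 14.8% and 12.3% of all genes, respectively. The rise in PULS was not called (log2 fold change 0.49, adjusted p = 0.099, edgeR). The VEH groups differed by 0.69 (adjusted p = 0.25) in the opposite direction, and the CORT groups compared directly by -1.25 (adjusted p = 0.0027).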

How the results depend on the processing

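Of 86 counts of called members or regions recomputed with another setting, 81 stayed within 1.5 times the main count. Without a filter on low counts the difference of RNA responses called 2 members (Tap1 at an adjusted p of 0.0087 beside Psmb8) in place of 1. With libraries centred on their medians, GR regions called numbered 0 at NADIR_180, 0 at CONS_140 and 0 at CONS_180 relative to VEH and 0 between PEAK_140 and NADIR_180. At PEAK_140 the count stayed at 1 but was of the region 38289 b from Psmb10, lowered at -5.33. Under this centring the region 38289 b from Psmb10 changed by -0.27 and that near Psme2 by -0.09 at CONS_140, the latter by -1.37 at CONS_180, and the region at -4972 b from Psmb10 by -1.36 between PEAK_140 and NADIR_180, all opposite in sign to the uncentred values. This centring subtracts from each library its own median over all GR regions, so that values are then relative to the other regions and downward shifts follow from its construction. Before centring, the median log2 difference of all regions was 4.17 at PEAK_140 relative to VEH.

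Leaving out 1 library at a time, the members called ranged from 2 to 3 in CONS (2 without the third CONS CORT library) and from 1 to 2 in the difference of responses (2 without the second CONS CORT or the first CONS VEH library, where Tap1 had adjusted p of 0.041 and 0.044). GR regions called ranged from 1 to 2 at PEAK_140 (2 without its second library), 2 to 4 at CONS_140, 1 to 1 at CONS_180 and 0 to 1 between PEAK_140 and NADIR_180. With the replicate block, 3 members were called in CONS, 1 in the difference of responses and 0 regions for pSer2 Pol2, and no count changed. The block lowered the pSer2 Pol2 SE of Tap1 from 0.59 to 0.42. For Psme1 at CONS_180 relative to VEH the unadjusted limma p went from 0.15 to 0.052. DESeq2 gave no adjusted p for 7 of 9 members in the difference of responses and 8 of 9 between VEH groups, and its counts of calls there are not given; its unadjusted p for Psmb8 was 1.5e-10. Alternatives for listed genes were added after seeing the data. The members other than B2m and Tap2 held 38 to 512 reads per RNA library, and ChIP groups held 2 libraries, which limits the changes that could be seen.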
